A study of Homo sapiens with 9 samples.

Results

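The joint effect of a vector and of mutant YAP was read by setting NCI-H716 cells with the YAP mutant vector against untreated NCI-H716 cells, on 6 of the 9 arrays of the study. The features tested are the 14625 named genes with a probe above background on at least 3 of the 9 arrays, which a gene could reach through a single group. NCI-H716 is an established human colorectal cancer line with enteroendocrine features that transcribes the proglucagon gene. Its RNA was amplified to biotin-labelled cRNA and hybridised to an Illumina bead array. The groups were 3 arrays of cells given a vector for mutant YAP, 3 arrays of cells given a control vector (mock, in the titles) and 3 arrays of cells with no treatment. The labels give neither the mutation, nor the kind of vector, nor the promoter, nor the time after its delivery, and do not state whether replicate arrays were separate cultures. The p-values therefore weigh a difference against array-to-array spread alone, and that spread may be technical. All groups are one cell line, and in RNA from whole cultures fewer cells of a kind and less RNA per cell cannot be told apart.

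YAP, encoded by YAP1, is the coactivator in which the Hippo pathway ends. The LATS kinases phosphorylate it and keep it in the cytoplasm. Unphosphorylated YAP enters the nucleus, where it binds DNA through the TEAD transcription factors and switches on genes of growth, adhesion and the cytoskeleton, and in the gut it is known for its part in regeneration and in the choice between stem, secretory and absorptive fates.

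Median raw signals ran from 105 to 122 on the YAP mutant vector arrays, from 104 to 129 on the control vector arrays and from 125 to 129 on the untreated arrays, so that one array of each vector group was dimmer than the rest. Between 38.9% and 41.2% of probes lay above background, and the number of arrays limits the precision of every value. The enteroendocrine genes GCG (proglucagon), CHGA (chromogranin A), ISL1 and INSM1 were above background on all 9 arrays, as were 16 of 26 enteroendocrine markers on every YAP mutant vector and untreated array, while 7 of the 26 lay above it on none. The blood marker PTPRC, the endothelial markers CDH5 and VWF and the fibroblast markers DCN, PDGFRB and THY1 were above background on 0 of these arrays. Other markers of the same lists were above it on all of them: 5 of 13 for blood (CD14, LYZ, CD68, HBA1 and HBB), 1 of 9 for endothelium (ESAM) and 4 of 11 for fibroblasts (COL3A1, LUM, FAP and POSTN). Among defining epithelial genes, EPCAM, KRT8 and KRT18 were measured in both groups, whereas CDH1, VIL1 and KRT20 did not pass the filter on dim probes.

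YAP1 itself, read by 1 probe, was not higher with the vector that carries it. Its log2 signals were 8.06, 7.82 and 7.91 on the YAP mutant vector arrays and 8.29, 8.17 and 8.01 on the untreated arrays. These groups overlapped, and the difference was -0.23 ± 0.11 (standard error from the limma model, n = 3 per group; adjusted p = 0.237). Which part of the transcript the probe reads is not given in the sources used here, so the YAP1 signal checks nothing about the labels.

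Against untreated cells, 784 of the 14625 genes passed the test (limma, Benjamini-Hochberg adjusted p under 0.05), which is 5.36% of the genes tested. Of these, 515 genes were higher (3.52%) and 269 were lower (1.84%) with the YAP mutant vector. Among the largest rises were RHBDF1, CCN2, the guanylin gene GUCA2A, FANCA (by its brightest probe) and the mucus gene FCGBP. The largest falls included ID3 and ID1. Large changes were few: 34 of the called genes were at least 2-fold higher and 6 at least 2-fold lower, and the median size of a called difference was 0.49 on the log2 scale, beside a median of -0.01 over all genes. Of the called genes, 778 had all 3 arrays of one group beyond all 3 of the other, as had 23.7% of all genes tested. An unadjusted p under 0.05 was reached by 2753 genes. Without YAP mutant vector replicate 3, 464 genes were called, and without untreated replicate 2, 490. With arrays scaled to a common median 180 were called, 109 higher and 71 lower.

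The 9 arrays can be read as a row of steps. The vector step runs from untreated cells to the control vector, and the YAP mutant step from the control vector to the YAP mutant vector. The labels do not state that the vectors differ in mutant YAP alone. The control vector passed the test against untreated cells in 333 genes (2.28%), of which 235 were higher (1.61%) and 98 lower (0.67%). The YAP mutant vector passed it against the control vector in 53 (0.362%), with 50 higher (0.342%) and 3 lower (0.0205%). These comparisons share arrays with each other and with the joint one, so their calls are not independent. Whether a gene's vector step and YAP mutant step differed in size was tested with a further contrast. This contrast is the control vector mean minus the midpoint of the YAP mutant vector and untreated means. Its estimate does not correlate with that of the joint difference, though both use the same estimate of the spread. A value at 0 places the control vector midway.

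RHBDF1 encodes an inactive rhomboid protein that handles the transport of EGFR ligands and of the protease ADAM17. Its log2 signals were 9.92, 10.07 and 9.83 on the YAP mutant vector arrays, 7.99, 7.70 and 7.54 on the control vector arrays, and 7.44, 7.47 and 7.34 on the untreated arrays. All 3 YAP mutant vector arrays stood far above the other 6. The control vector arrays lay above the untreated ones, by 0.33 between the means, with no call (adjusted p = 0.154). The joint difference was 2.53 ± 0.11, or 5.76-fold (adjusted p = 2.15e-12), and the control vector lay 0.93 ± 0.10 below the midpoint (adjusted p = 4.2e-05).

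CCN2, listed on the array under its older name CTGF, encodes a secreted matrix protein and is a textbook YAP/TEAD target. It read 8.85, 9.34 and 8.56 on the YAP mutant vector arrays, 6.93, 6.73 and 6.72 on the control vector arrays, and 6.80, 6.94 and 6.86 on the untreated arrays. Control vector and untreated arrays overlapped, and every YAP mutant vector array lay above them. CCN2 was 4.14-fold higher than in untreated cells (log2 2.05 ± 0.14, adjusted p = 2.87e-09), and its second probe differed by 1.27.

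HLA-B, a heavy chain of the class I molecules that show peptides to T cells, showed the opposite pattern. Its log2 signals were 10.50, 10.47 and 10.40 on the YAP mutant vector arrays, 10.31, 10.50 and 10.22 on the control vector arrays, and 9.27, 9.31 and 9.24 on the untreated arrays. Here the vector groups overlapped and the untreated arrays lay below both. HLA-B was 2.28-fold higher than in untreated cells (log2 1.19 ± 0.10, adjusted p = 1.8e-07), and the control vector lay 0.48 ± 0.09 above the midpoint (adjusted p = 0.0338).

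The promoters of these genes are shown because these genes are called off the midpoint on opposite sides: CCN2 and RHBDF1 with the control vector on the untreated side, and HLA-B with it on the YAP mutant vector side. Each is the 250 bases before the RefSeq gene start, on assembly GRCh38.p14, and all lie on the minus strand. They are printed 5′ to 3′ in the direction of transcription. Capitals mark, on either strand, GGAATG (TEAD) in CCN2, GGAATG and TGACTCA (AP-1) in RHBDF1, and GGGATTCCC (NF-kappaB) and TTTCACTTC (the core of an interferon-stimulated response element) in HLA-B. No marked match overlaps another.
CCN2 (chr6:131951373-131951622): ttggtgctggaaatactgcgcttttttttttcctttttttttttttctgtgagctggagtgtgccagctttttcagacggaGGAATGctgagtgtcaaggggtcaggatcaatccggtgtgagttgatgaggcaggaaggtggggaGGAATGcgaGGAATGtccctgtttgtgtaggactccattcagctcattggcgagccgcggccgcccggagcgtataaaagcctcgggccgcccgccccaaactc
RHBDF1 (chr16:72632-72881): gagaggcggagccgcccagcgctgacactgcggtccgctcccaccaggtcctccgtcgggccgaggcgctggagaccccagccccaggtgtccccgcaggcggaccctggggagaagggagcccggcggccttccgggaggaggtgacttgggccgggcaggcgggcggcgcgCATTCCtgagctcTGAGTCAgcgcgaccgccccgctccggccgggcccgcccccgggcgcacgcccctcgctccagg
HLA-B (chr6:31357180-31357429): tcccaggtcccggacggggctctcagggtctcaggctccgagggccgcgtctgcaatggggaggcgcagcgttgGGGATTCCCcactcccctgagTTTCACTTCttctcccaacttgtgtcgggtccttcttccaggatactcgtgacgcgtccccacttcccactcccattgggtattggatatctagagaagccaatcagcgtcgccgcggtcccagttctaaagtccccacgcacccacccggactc

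The CCN2 window held GGAATG 3 times, with first bases 169, 104 and 95 bases before the start. The RHBDF1 window held it once, in reverse as CATTCC, 77 bases before the start, and a reversed TGACTCA 64 bases before. In the HLA-B window GGGATTCCC began 176 and TTTCACTTC 155 bases before the start. A single window was on hand for 6575 of the 14625 genes tested, among them 240 called higher and 124 called lower. GGAATG was found in 14.2% of the windows of genes called higher and 8.06% of those called lower, beside 9.19% of the genes tested and 11.9% of all 35116 windows. TGACTCA was found in 2.08%, 4.84%, 2.43% and 4.2% of the same sets in that order, GGGATTCCC in 1.25%, 0.806%, 0.395% and 0.362%, and TTTCACTTC in 1.25%, 0%, 0.35% and 0.439%. Among KRT4, MYOF, CGN, GUCA2A, GUCA2B, FCGBP, ID1 and ID3, the only match to the searched letters was 1 TTTCACTTC in the window of MYOF. These matches are letters in a window, no more.

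**Figure D1:**
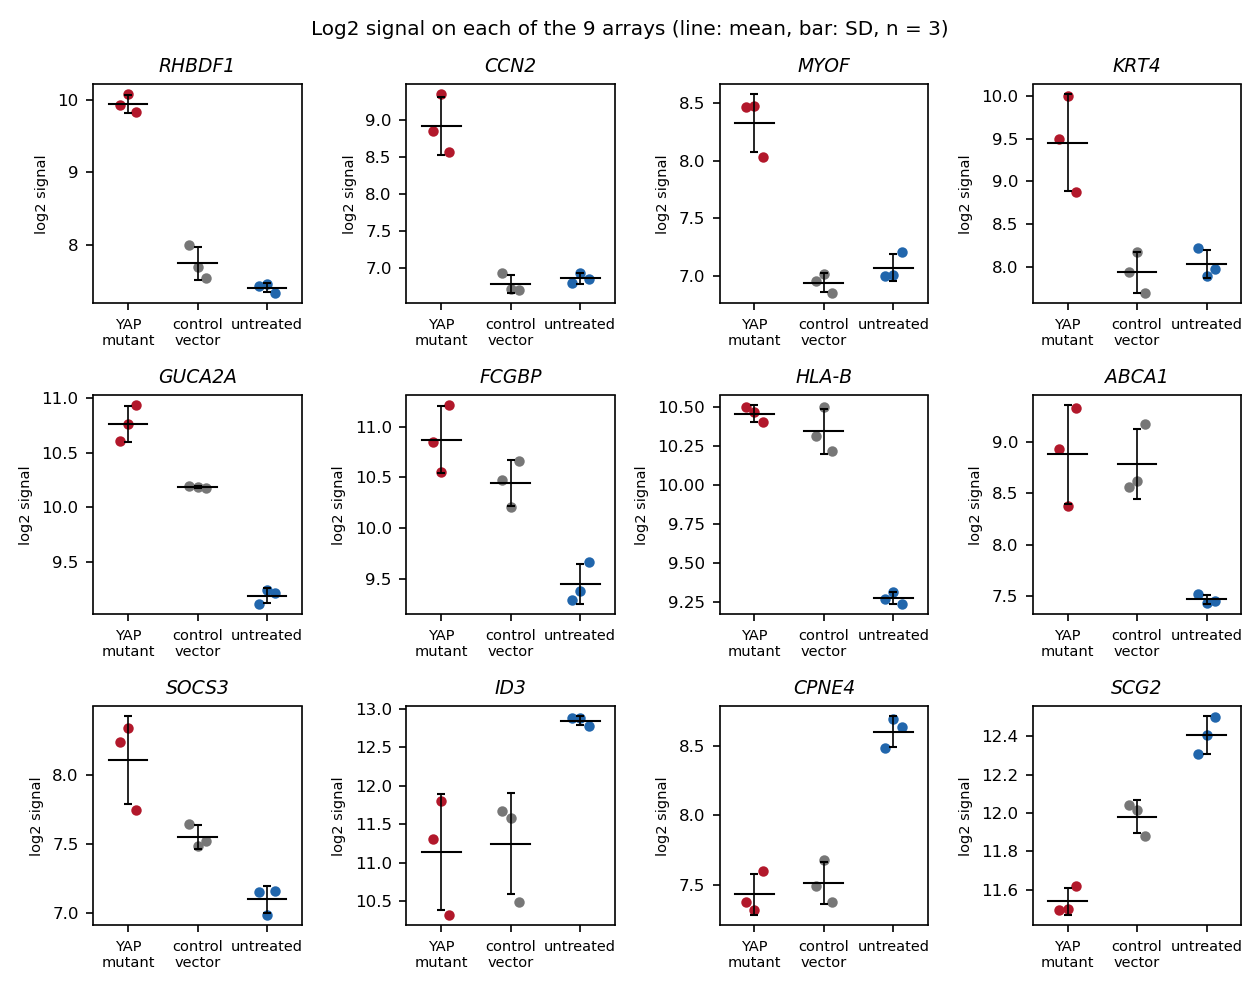
Each panel plots the log2 signal of 1 gene on each of the 9 arrays (points) by group, with the group mean (line) and SD (bar, n = 3); the vertical axes differ between panels and do not start at 0. RHBDF1, CCN2, MYOF and KRT4 were high only on the YAP mutant vector arrays of these 9, HLA-B, ABCA1, ID3 and CPNE4 read much alike on both kinds of vector arrays, and SOCS3 and SCG2 show the control vector arrays midway.

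Across all genes, the control vector was called off the midpoint in 16 (0.109%), and 10 of these were among the 784 genes called against untreated cells, while 1047 genes had an unadjusted p under 0.05 there. With the control vector on the untreated side stood 5 genes: CCN2, RHBDF1, KRT4, MYOF and TAX1BP3. KRT4, a keratin of stratified mucosa, read 9.50, 9.997 and 8.87 on the YAP mutant vector arrays and 8.22, 7.90 and 7.98 on the untreated arrays, a difference of 1.42 ± 0.18 (adjusted p = 2.02e-05). MYOF, a ferlin that helps to reseal membranes, was 2.38-fold higher (log2 1.25 ± 0.12, adjusted p = 4.45e-07), and its other probes differed by 0.57 and 1.07. TAX1BP3, whose product is little more than a PDZ domain, rose by 0.56 ± 0.12 (adjusted p = 0.00754), with a control vector mean 0.28 below the untreated one. The call of TAX1BP3 ended without YAP mutant vector replicate 2 and with arrays scaled to a common median. The count of 16 depends on the arrays: it was 40 without YAP mutant vector replicate 3, 14 without control vector replicate 2 and between 6 and 10 without each of the other arrays in turn.

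The other 5 had the control vector on the side of the YAP mutant vector: BEX2, HLA-B, CALY, CPNE4 and IGFBP3. BEX2, a small brain-expressed X-linked protein, read 9.23, 9.36 and 9.39 on the YAP mutant vector arrays, 9.31, 9.41 and 9.33 on the control vector arrays, and 8.29, 8.30 and 8.10 on the untreated arrays. The vector groups overlapped, and BEX2 was 2.14-fold higher than in untreated cells (adjusted p = 3.86e-07). CALY, which binds dopamine receptors, rose by 0.54 ± 0.10 (adjusted p = 0.00177). CPNE4, a copine that binds phospholipids with calcium, was 2.25-fold lower, at 7.38, 7.32 and 7.60 on the YAP mutant vector arrays and 8.48, 8.69 and 8.64 on the untreated arrays. IGFBP3, which binds insulin-like growth factors and is often counted among YAP/TEAD targets, fell by 0.85 ± 0.12 (adjusted p = 6.36e-05), and its control vector mean lay 0.95 below the untreated mean.

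For most called genes the control vector mean fell between the ends without a call on either side. A gene without a call off the midpoint is not thereby placed midway, as 3 arrays per group leave small differences between the steps uncalled. The control vector mean was nearer to the YAP mutant vector mean in 581 of the 784 genes and nearer to the untreated mean in 203. Without both dim arrays, control vector replicate 3 and YAP mutant vector replicate 1, the split was 390 against 240 of 630 called genes. With array brightness as a covariate it was 374 against 132 of 506.

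**Figure D2:**
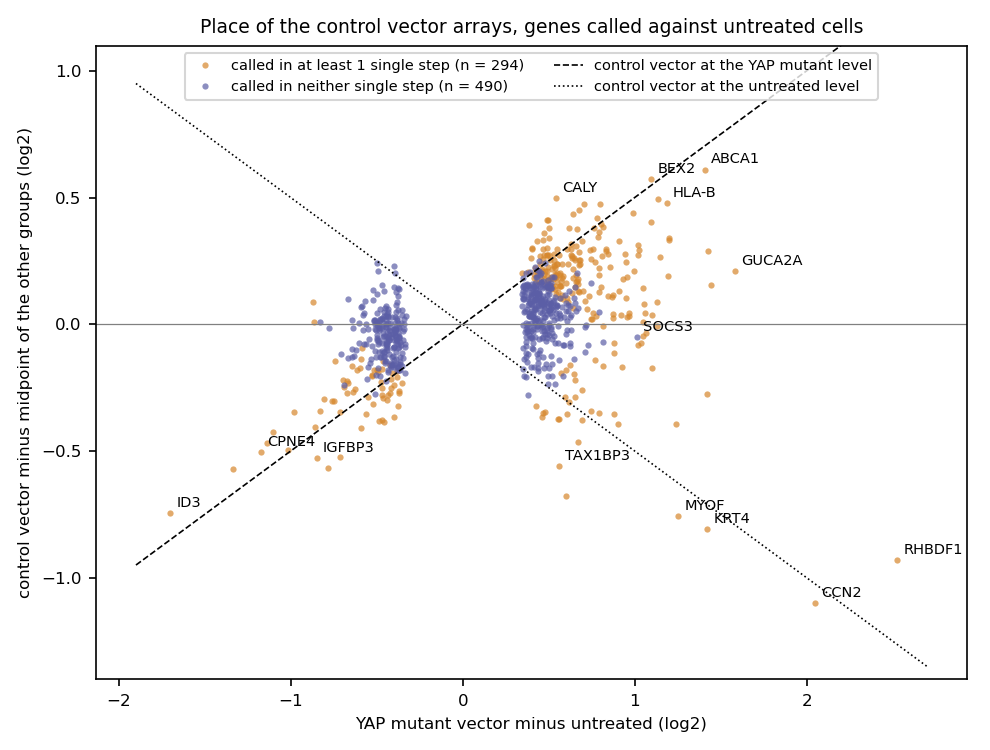
Each point is 1 of the 784 genes called against untreated cells, with its log2 difference between YAP mutant vector and untreated arrays on the horizontal axis and the control vector mean minus the midpoint of the other groups on the vertical axis. The dashed line marks a control vector at the YAP mutant level and the dotted line one at the untreated level. The 490 genes called in neither single step lie around 0 on the vertical axis, which follows from their selection. CCN2, KRT4 and MYOF lie near the dotted line, and RHBDF1 lies above it, with a vector step of 0.33.

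In neither single step were 490 of the 784 genes called, 285 of them higher and 205 lower against untreated cells. They made up 62.5% of the called genes and 3.35% of the genes tested. Their joint differences were modest, with a median size of 0.45 and a largest of 1.01. In the direction of the joint difference the median vector step was 0.28 and the median YAP mutant step 0.18. In none of the 490 was the control vector called off the midpoint. This follows from their selection, since the midpoint contrast measures how far the steps differ and neither step was called. The smallest adjusted p of the 490 in a single step was 0.0503 in the vector step and 0.0567 in the YAP mutant step. An unadjusted p under 0.05, a looser bar, was reached by 340 in the vector step and 162 in the YAP mutant step. Of these, 58 had it in both steps, while 46 of the 490 had it in neither. That a gene passes here and in no single step does not show that its steps differ from those of other genes. Without YAP mutant vector replicate 3 the number was 211, without control vector replicate 3 it was 688, and without both dim arrays it was 486. It was 303 without untreated replicate 2 and 320 without YAP mutant vector replicate 1.

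SOCS3, the feedback inhibitor of cytokine receptors that signal through JAK and STAT, had the largest rise among them. It read 8.24, 8.34 and 7.74 on the YAP mutant vector arrays, 7.65, 7.48 and 7.52 on the control vector arrays, and 7.15, 6.98 and 7.16 on the untreated arrays. No 2 groups overlapped, and SOCS3 was 2.02-fold higher than in untreated cells (log2 1.01 ± 0.13, adjusted p = 1.61e-05). Its vector step was 0.45 (adjusted p = 0.062) and its YAP mutant step 0.56 (adjusted p = 0.0582).

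Next in size among the rises that no single step called came VSTM2L (0.81), a secreted immunoglobulin-domain protein, and COL16A1 (0.79), a fibril-associated collagen chain. MIR1974, a retired microRNA name kept from the array's design, rose by 0.75 ± 0.20 (adjusted p = 0.0289), and LMCD1, a LIM protein that represses GATA factors, by 0.73 ± 0.11 (adjusted p = 2.68e-04). TBC1D2, which inactivates RAB7, rose by 0.72, the glutamate transporter gene SLC1A7 by 0.71 and the sushi-repeat gene SRPX by 0.71. SRPX read 10.39, 10.56 and 10.39 on the YAP mutant vector arrays, 10.07, 10.10 and 10.07 on the control vector arrays, and 9.83, 9.68 and 9.71 on the untreated arrays, so that its groups formed 3 separate tiers. MYLK, the myosin light chain kinase of smooth muscle, was above background on 0 of 3 untreated arrays and at least 1.41-fold higher with the YAP mutant vector (adjusted p = 5.35e-04). A fold written as "at least" is taken against the lowest signal above background, or the gene's own signal where that was higher, on each untreated array. Another MYLK probe differed by -0.09. INHBE, an activin beta subunit, rose by 0.66 ± 0.17 (adjusted p = 0.0196).

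The falls that no single step called were led by ANO3, a member of the anoctamin family of channels and scramblases, at -0.78 ± 0.12 (adjusted p = 3.3e-04). KIF1A, the kinesin that carries synaptic vesicle precursors, fell by 0.71, and STX1A, a syntaxin of the exocytosis machinery, by 0.67. STX1A read 10.20, 10.01 and 10.04 on the YAP mutant vector arrays, 10.55, 10.47 and 10.53 on the control vector arrays, and 10.86, 10.67 and 10.72 on the untreated arrays. These are again 3 tiers with no overlap, and the step from control vector to YAP mutant vector was -0.44 (adjusted p = 0.0659). PLIN5, a lipid droplet protein, fell by 0.69, the enamel matrix gene AMBN by 0.67, and GCLM, the modifier subunit of the first enzyme of glutathione synthesis, by 0.64. The neurotensin receptor gene NTSR1, LRRC31, YRDC (an enzyme of tRNA modification) and the histone gene HIST1H2BG fell by 0.62 to 0.64. PLIN5, AMBN and NTSR1 among the falls, and MIR1974 and INHBE among the rises, lost their calls in 7 to 9 of the 22 other settings run.

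Genes with no unadjusted p under 0.05 in either step, though called against untreated cells, numbered 46. The following 6 were picked after their values were seen. MGST1, a microsomal glutathione transferase, differed by -0.50, the Fc receptor gene FCGR3A by -0.50 and the somatostatin receptor gene SSTR2 by -0.49. EPHA2, an ephrin receptor, differed by 0.50, and SYTL2 and MYRIP, which link RAB27 to exocytosis, by 0.46 and 0.45. In SSTR2 the YAP mutant vector arrays read 9.10, 9.49 and 9.38, the control vector arrays 9.75, 9.45 and 9.49, and the untreated arrays 9.76, 10.07 and 9.60. Neighbouring groups overlapped in SSTR2 and only the ends were apart.

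**Figure D3:**
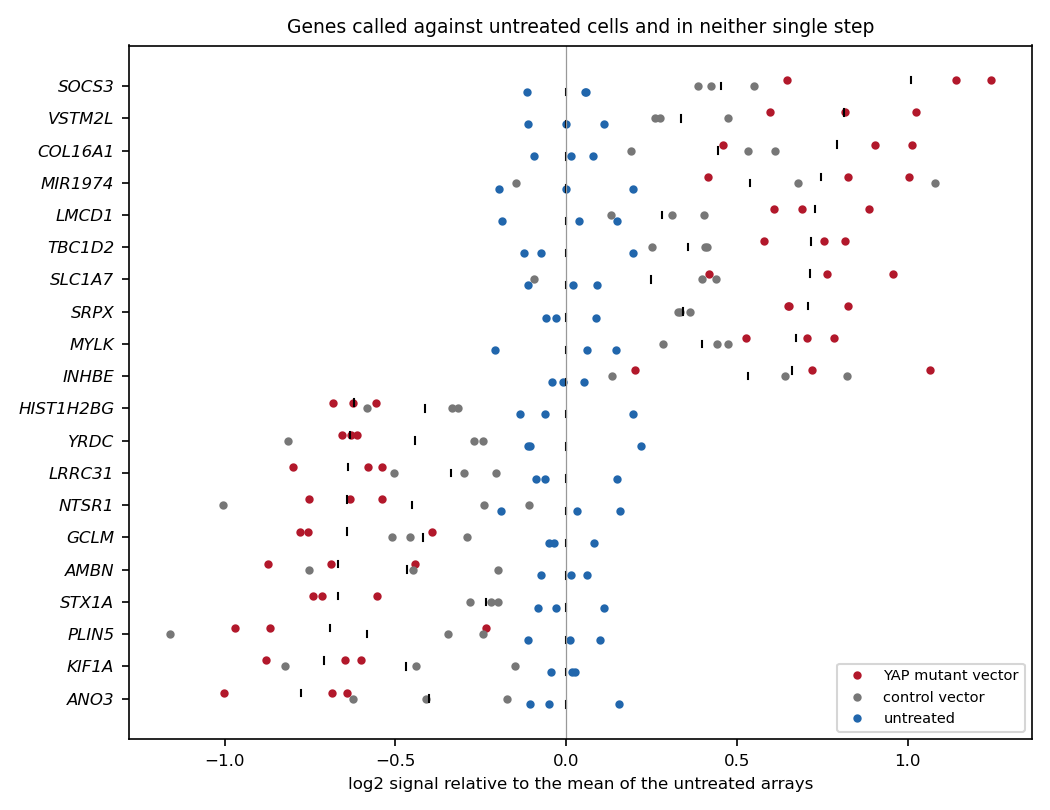
For the 10 largest rises and 10 largest falls among genes called in neither single step, the points give the log2 signal on each array minus the mean of the untreated arrays, and the short bars mark group means. YAP mutant vector arrays (red) and untreated arrays (blue) are apart in all 20 genes shown. The genes were picked for large called differences between these groups, so this adds no support. The groups were apart in 778 of the 784 called genes and in 23.7% of all genes tested. The control vector arrays (grey) lie between the ends or among the points of a neighbouring group. Exceptions are 1 array beyond the YAP mutant vector arrays in each of MIR1974, YRDC, NTSR1 and PLIN5.

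The genes that YAP/TEAD is known to drive did not move as 1 block. Of 14 measured targets, 4 rose (AJUBA, CCN2, GADD45A and MYOF) and 2 fell (F3 and IGFBP3), beside 5.36% called of all genes, and their median difference was 0.24. The list held 23 targets, and the others, among them ANKRD1, AXL and LATS2, did not pass the filter on dim probes. AJUBA, a LIM protein that restrains LATS kinases, rose by 0.88 ± 0.12 (adjusted p = 3.7e-05), with YAP mutant vector arrays at 7.63, 7.55 and 7.24 and untreated arrays at 6.65, 6.47 and 6.66. GADD45A, a stress-response gene that p53 also drives, rose by 0.80 ± 0.12 (adjusted p = 2.89e-04), and 0.76 of it was there with the control vector. F3, which encodes tissue factor, fell by 0.60. CCN1, the relative of CCN2, differed by 0.22 and AMOTL2 by -0.13, neither past the test. Among the measured components of the Hippo pathway, from the kinases STK3 and STK4 to TEAD2, TEAD3 and TEAD4, 0 of 18 passed. Their differences ran from -0.23 to 0.32, with a median of -0.03. LATS1, LATS2, TEAD1, WWTR1, WWC1, AMOTL1 and LIMD1 did not pass the filter on dim probes. With 5.36% called of all genes, 18 genes are too few for 0 calls to set this list apart.

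Around RHBDF1, 3 of 12 measured rhomboid and EGFR family genes rose, beside 3.52% called higher of all genes. Besides RHBDF1 they were ERBB2, which rose by 0.60 ± 0.11 (adjusted p = 9.13e-04), and EGFR itself, which rose by 0.42 ± 0.11 (adjusted p = 0.0272). EGFR lost its call in 7 of the 22 other settings. The ligand genes HBEGF and EREG differed by 0.38 and 0.26, and the shedding protease genes ADAM17 and ADAM10 by -0.19 and 0.08, none past the test. RHBDF2, the close relative of RHBDF1, differed by 0.01.

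Of 15 measured secretory and absorptive genes of the gut, 6 passed, each of them higher, and 9 did not. The median over the 15 was 0.23, and 3.52% of all genes tested were called higher. GUCA2A and GUCA2B encode guanylin and uroguanylin, the peptides that drive salt and water secretion, and are neighbouring protein-coding genes on chromosome 1. GUCA2A read 10.61, 10.76 and 10.93 on the YAP mutant vector arrays, 10.20, 10.19 and 10.18 on the control vector arrays, and 9.11, 9.23 and 9.21 on the untreated arrays. Its groups were 3 tiers, and the joint difference was 1.58 ± 0.10, or 2.99-fold (adjusted p = 2.15e-09). GUCA2B rose by 1.14 ± 0.10 (adjusted p = 3.53e-07).

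FCGBP, a protein of goblet cell mucus, read 10.85, 10.55 and 11.21 on the YAP mutant vector arrays, 10.48, 10.21 and 10.66 on the control vector arrays, and 9.29, 9.38 and 9.67 on the untreated arrays. The vector groups overlapped and the untreated arrays lay below both, for a joint rise of 1.43 ± 0.14 (adjusted p = 1.04e-06), with 0.52 at a second probe. The trefoil peptide gene TFF3 rose by 0.47, the membrane mucin gene MUC13 by 0.49 and the goblet cell transcription factor gene SPDEF by 0.41, while MUC2, TFF2 and ZG16 did not pass the filter on dim probes. SPDEF and MUC13 were called in neither single step.

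The enteroendocrine list, by contrast, gave 4 calls among 18 measured genes, 2 in each direction, with a median of 0.09. Of all genes tested, 3.52% were called higher and 1.84% lower. SCG2, which encodes the granin secretogranin II, read 11.49, 11.50 and 11.62 on the YAP mutant vector arrays, 12.04, 12.02 and 11.88 on the control vector arrays, and 12.31, 12.41 and 12.50 on the untreated arrays. The groups were 3 tiers, and SCG2 was 1.82-fold lower than in untreated cells (log2 -0.87 ± 0.10, adjusted p = 5.95e-06). PCSK1, the convertase that cuts proglucagon to GLP-1, fell by 0.57 ± 0.11 (adjusted p = 0.00249), and was called in neither single step. SCG3 and SCG5, a granin and a chaperone of the convertase PCSK2, rose by 0.43 and 0.34 and lost their calls in 9 and 10 of the 22 other settings. Proglucagon (GCG), chromogranin A (CHGA) and the transcription factor gene ISL1 differed by 0.13, 0.14 and 0.03, with no call. Of the summed linear signal of the 26 markers on the array, the YAP mutant vector arrays held 56098 to 58711 and the untreated arrays 54530 to 59714.

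Among factors of intestinal and epithelial identity, 2 of 11 rose, ELF3 by 0.62 and FOXA2 by 0.49, both called in neither single step. For this list and the next, the share called higher of all genes was 3.52%. CDX2 and HNF4A, which hold intestinal identity, differed by -0.09 and -0.24 with no call. Epithelial junction and keratin genes gave 5 rises and 0 falls among 15 measured, with a median of 0.16. CGN, the tight junction protein cingulin, read 9.54, 9.63 and 9.59 on the YAP mutant vector arrays, 8.52, 8.43 and 8.86 on the control vector arrays, and 8.12, 8.23 and 8.16 on the untreated arrays. CGN stood in 3 tiers and was 2.67-fold higher (adjusted p = 3.65e-08). JUP, or plakoglobin, rose by 0.97 ± 0.13 (adjusted p = 4.25e-05) and KRT8 by 0.50 (adjusted p = 0.046). KRT80 was above background on 0 of 3 untreated arrays and at least 1.32-fold higher. It passed the filter through the YAP mutant vector arrays alone, so its call adds no support to the 5 rises. With probes above background on at least 6 arrays, 4 of 12 measured junction and keratin genes rose. EPCAM, KRT18 and the claudin genes CLDN4 and CLDN7 differed by -0.26, 0.04, 0.03 and 0.05, with no call.

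Genes of the actin cytoskeleton and targets of the factor SRF gave 9 rises and 0 falls among 23 measured, with a median of 0.22. Over all genes tested, 3.52% were called higher and 1.84% lower. Smooth muscle actin ACTG2 rose by 0.82 ± 0.11 (adjusted p = 5.82e-05), and the transgelins TAGLN and TAGLN2 by 0.77 and 0.74. TAGLN read 7.64, 7.87 and 7.52 on the YAP mutant vector arrays, 7.23, 7.17 and 7.05 on the control vector arrays, and 6.74, 7.02 and 6.96 on the untreated arrays, with no overlap between groups. CNN2 and CNN3, both calponins, rose by 0.70 and 0.65, FHL2 by 0.65, CAVIN1 by 0.59 and caldesmon (CALD1) by 0.41. The common actins ACTB and ACTG1 differed by -0.05 and -0.18, and SRF by -0.13, with no call.

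Of all called genes with a name, ID3 and ID1 fell most. The ID proteins sequester basic helix-loop-helix factors and are classic targets of BMP signalling. ID3 read 11.31, 11.80 and 10.32 on the YAP mutant vector arrays, 11.68, 11.59 and 10.49 on the control vector arrays, and 12.88, 12.88 and 12.78 on the untreated arrays. Both vector groups were widely spread and overlapped, and each of their 6 arrays lay below the untreated ones; ID3 was 3.25-fold lower than in untreated cells (log2 -1.70 ± 0.26, adjusted p = 2.4e-04). ID1 fell by 1.34 ± 0.23 (adjusted p = 7.32e-04) and ID2 by 0.83 ± 0.16 (adjusted p = 0.00178). The calls of ID3 and ID1 ended with a prior variance that follows signal and resists outliers (adjusted p = 0.103 and 0.125; 4.81e-07 and 2.41e-05 at the lowest over the other settings).

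Of 17 measured genes of BMP signalling and the ID family, 6 fell and 1 rose, with a median of -0.28. Over all genes tested, 1.84% were called lower and 3.52% higher. ATOH8, a helix-loop-helix factor, fell by 0.71, SMAD9, a receptor-activated SMAD of the BMP branch, by 0.43, and the BMP antagonist gene GREM1 by 0.42. BMP4, a ligand, rose by 0.42 ± 0.11 (adjusted p = 0.0253). SOSTDC1, a secreted BMP and Wnt antagonist outside the list, fell by 0.79 ± 0.14 (adjusted p = 0.00141).

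Of 18 measured genes of class I antigen presentation, 7 were called, each of them higher, and 11 were not. The median over the 18 was 0.34, and 3.52% of all genes tested were called higher. Besides HLA-B the 7 class I genes called included HLA-E (0.97 ± 0.11, adjusted p = 3.79e-06), HLA-F (0.80) and HLA-G (0.65). Class I genes resemble each other, and which of them a probe reads besides its own was not tested. The peptide transporter gene TAP1 rose by 0.61 and the immunoproteasome gene PSMB8 by 0.45, while B2M, the light chain, and HLA-C differed by 0.26 and 0.20 with no call.

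Interferon-stimulated genes gave 3 rises among 21 measured, beside 3.52% called higher of all genes, with a median of 0.17 over the 21. IFI6, a mitochondrial protein, read 10.92, 10.85 and 11.12 on the YAP mutant vector arrays, 10.42, 10.50 and 10.62 on the control vector arrays, and 9.96, 9.95 and 10.11 on the untreated arrays. IFI6 stood in 3 tiers and was 1.94-fold higher (adjusted p = 3.14e-06). PARP14 and STAT2 rose by 0.42 and 0.36, and lost their calls in 10 and 14 of the 22 other settings. ISG15 and IFIT1 differed by 0.17 and -0.14, with no call, and IFIT2, IFIT3, MX1 and OAS2 did not pass the filter on dim probes.

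ABCA1, which loads cholesterol onto lipoproteins and is a target of the oxysterol receptor LXR, read 8.93, 8.38 and 9.33 on the YAP mutant vector arrays, 8.56, 8.62 and 9.18 on the control vector arrays, and 7.52, 7.43 and 7.46 on the untreated arrays. The vector groups overlapped, the untreated arrays lay below both, and ABCA1 was 2.66-fold higher than in untreated cells (adjusted p = 1.22e-05). ABCG1, its partner in export, rose by 1.02 ± 0.12 (adjusted p = 4.57e-06) and SCD, a fatty acid desaturase, by 0.50. These were 3 of 11 genes of the sterol export and LXR list, with a median of 0.16, and SCD lost its call in 7 of the 22 other settings. Of 24 genes of cholesterol synthesis and uptake, 2 fell and 0 rose, with a median of -0.07, beside 5.36% called of all genes tested. SQLE, the squalene epoxidase of the synthesis pathway, fell by 0.37 (adjusted p = 0.035) and lost its call in 10 of the 22 other settings.

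Genes of the aryl hydrocarbon receptor pathway fell in 3 of 6 measured cases, beside 1.84% called lower of all genes. CYP1B1 fell by 1.02 ± 0.19 (adjusted p = 0.00173) and NQO1 by 0.59. TIPARP fell by 0.40 (lost in 5 of the 22 other settings), while AHR differed by 0.10. CYP1B1 read 9.60, 9.89 and 8.96 on the YAP mutant vector arrays, 9.48, 9.94 and 9.07 on the control vector arrays, and 10.55, 10.27 and 10.68 on the untreated arrays. The vector groups overlapped almost fully and all lay below the untreated arrays. The call of CYP1B1 ended with a prior variance that follows signal and resists outliers (adjusted p = 0.0825; 3.04e-04 at the lowest over the other settings).

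The proliferation lists held few calls. Of 29 DNA replication genes, the cyclin gene CCNE1, MCM10 and RRM2 fell, by 0.52, 0.46 and 0.43, and 26 were not called, with a median of -0.15. RRM2 lost its call in 13 of the 22 other settings, CCNE1 in 6, and MCM10 with the mean over its probes, where it differed by -0.20. None of 23 G2/M genes, 18 heat shock genes or 11 Wnt targets passed (0 each). Over all genes tested 5.36% were called, and these lists are too short for few or no calls to set them apart from that share. In ribosome biogenesis 1 of 24 genes fell, NOP56 by 0.42, with a median of -0.15, and its call was lost in 9 settings. Among immediate early genes and MAPK feedback, 1 of 24 fell, SPRY4 by 0.47, and FOS and EGR1 differed by 0.32 and 0.03, with no call.

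Stress and survival genes moved singly, beside 5.36% called of all genes tested. BCL2L1, which encodes the anti-apoptotic BCL-XL, read 10.45, 10.41 and 10.17 on the YAP mutant vector arrays, 9.50, 9.54 and 9.47 on the control vector arrays, and 9.50, 9.49 and 9.33 on the untreated arrays. The YAP mutant vector arrays lay above all others, and BCL2L1 was 1.87-fold higher than in untreated cells (adjusted p = 5.69e-06). A second, dimmer BCL2L1 probe gave 0.28. BIRC3, an inhibitor of apoptosis, and PMAIP1, the BH3-only protein NOXA, fell by 0.46 and 0.37, making 3 calls among 17 apoptosis regulators, and PMAIP1 lost its call in 10 of the 22 other settings. Of 23 genes of the ATF4 and unfolded protein responses, NUPR1, PHGDH and ASNS rose, by 0.52, 0.50 and 0.47, and their calls were lost in 1, 4 and 8 settings in that order. NDRG1, ADM and BNIP3L rose by 0.70, 0.53 and 0.43 in a hypoxia and glycolysis list of 24 whose median was -0.01 (BNIP3L lost its call in 4 settings), and GADD45A was the only call among 21 p53 targets and CDK inhibitors. In the Fanconi list 1 of 18 was called: FANCA, part of the core complex, was 2.72-fold higher by its brightest probe (adjusted p = 3.9e-07), and its other probe differed by -0.21.

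**Figure D4:**
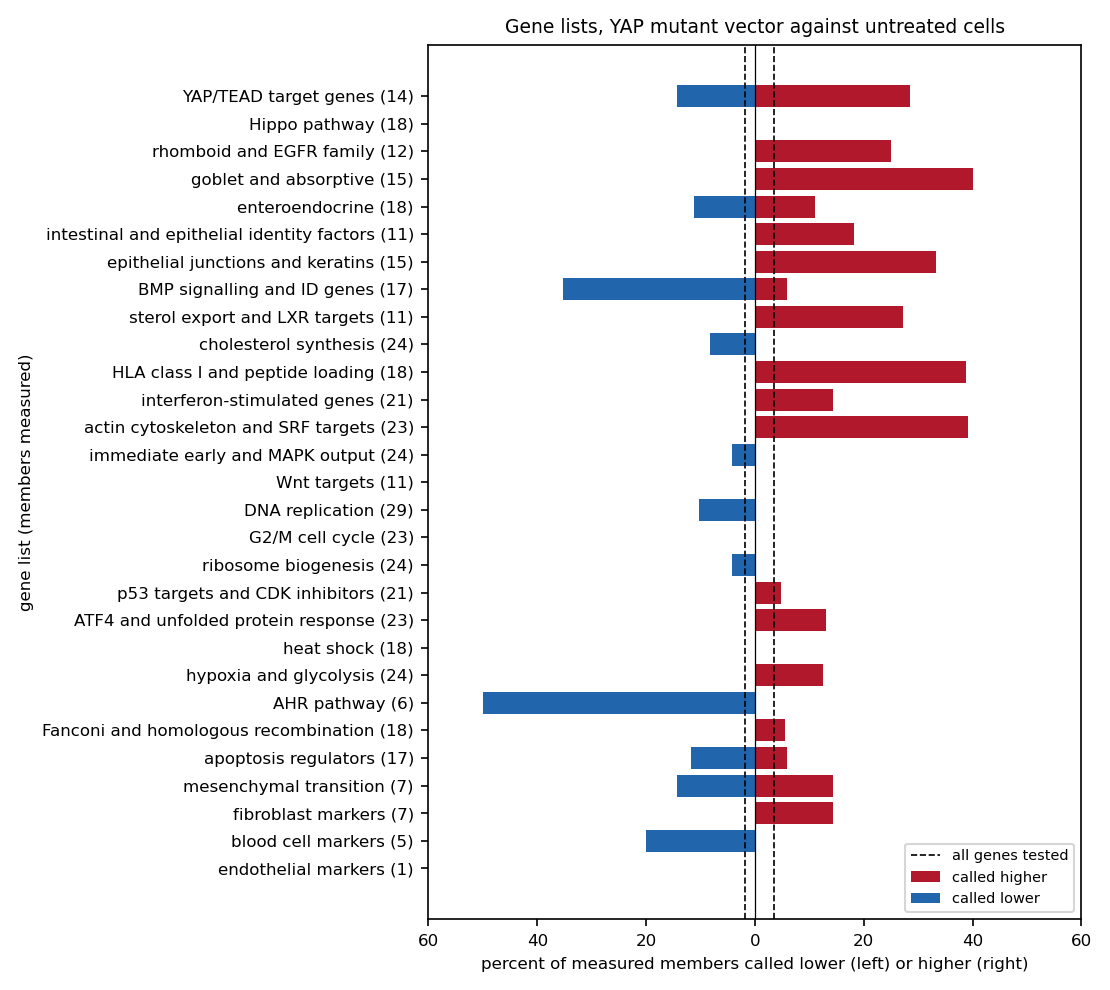
Bars give, for each gene list, the percent of measured members called higher (red, right) or lower (blue, left) with the YAP mutant vector than in untreated cells; the number of measured members stands in brackets, and the dashed lines mark the same shares over all genes tested, 3.52% higher and 1.84% lower. Goblet and absorptive, HLA class I, actin and epithelial lists have long red bars and BMP and AHR lists long blue ones. Several lists are too short for their shares to be read closely. The bar of epithelial junctions and keratins counts KRT80, which passed the filter through the YAP mutant vector arrays alone.

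The counts of the longer bars varied with the settings. Those of junction and keratin genes include KRT80 in each setting that measured it. Over the main and 22 other settings, 3 to 7 goblet and absorptive genes, 3 to 8 HLA class I genes, 4 to 10 actin and SRF genes and 3 to 5 junction and keratin genes rose, and 4 to 6 BMP and ID genes fell. The lowest counts came with arrays scaled to a common median, except for the 3 junction and keratin genes, which were those called without YAP mutant vector replicate 2. The 4 BMP and ID falls came also with a prior variance that follows signal and resists outliers. Lists with few calls varied as well: 1 to 4 rhomboid and EGFR genes, 1 to 4 interferon-stimulated genes, 0 to 5 ATF4 and unfolded protein genes and 1 to 4 hypoxia genes rose, and 0 to 4 DNA replication genes fell. Without both dim arrays, 5 goblet and absorptive, 6 HLA class I, 10 actin and SRF and 4 junction and keratin genes rose, and 6 BMP and ID genes fell.

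Outside the lists, the largest rises also included MSLN, FNDC5, GLT8D2 and MMP11. MSLN, the surface protein mesothelin, was above background on 3 of 3 YAP mutant vector arrays and on 0 of 3 untreated arrays, at least 1.90-fold higher. MSLN and KRT80 passed the filter through the YAP mutant vector arrays alone, the group in which they are high, so their calls add no support of their own to a count. Both were also called with no filter on dim probes. FNDC5, the precursor of irisin, was 2.30-fold higher (adjusted p = 1.28e-06), the glycosyltransferase gene GLT8D2 likewise 2.30-fold (adjusted p = 3.12e-07) and the stromelysin gene MMP11 2.29-fold (adjusted p = 5.77e-06). MMP11 read 9.16, 8.99 and 9.46 on the YAP mutant vector arrays, 8.77, 8.49 and 9.14 on the control vector arrays, and 7.96, 7.97 and 8.10 on the untreated arrays. The vector groups of MMP11 overlapped.

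Besides CPNE4, the largest falls outside the lists were those of WDR25 (-1.14), the homeobox gene PRRX2 (-1.10) and the LIM protein gene CRIP2 (-0.98). PRRX2 read 10.20, 10.25 and 10.16 on the YAP mutant vector arrays, 10.47, 10.36 and 10.15 on the control vector arrays, and 11.16, 11.36 and 11.39 on the untreated arrays. Again the vector groups overlapped below the untreated one. SSBP4, which binds single-stranded DNA, fell by 0.87 ± 0.10 (adjusted p = 4.37e-06), with -0.61 at a second probe. BPIFB4 fell by 0.86 and the chromatin remodeller gene CHD5 by 0.81. BPIFB4 was above background on 1 of 3 YAP mutant vector arrays, 1 of 3 control vector arrays and 3 of 3 untreated arrays. The low end of its fall was thus read near background.

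Marker lists of other cell types held few calls, beside 5.36% called of all genes tested. With so few members measured, their shares cannot be read closely. The fibroblast gene LUM, which encodes lumican, rose by 0.51 (adjusted p = 0.0159), 1 of 7 measured, and the summed linear signal of the 11 fibroblast markers was 6264 to 8292 on the YAP mutant vector arrays and 5627 to 6504 on the untreated arrays. Of the blood markers HBA1 fell by 0.50, 1 of 5 measured, with sums of 7236 to 8101 and 7282 to 8306 on the same arrays in that order. Endothelial markers gave 0 calls, and their sums, 647 to 691 and 617 to 656, lay below the summed background floor on every array. In the mesenchymal list S100A4 rose by 0.92 ± 0.11 (adjusted p = 1.05e-05) and TGFBI fell by 0.37, of 7 measured. LUM lost its call in 7 and TGFBI in 6 of the 22 other settings. The part of these markers in the other results was not tested.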

How the data were processed

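Members, gene lists and naming rules were chosen with earlier results of these data known. The deposited table holds the probe intensity of 47230 probes on 9 arrays, exported by the authors with BeadStudio per the submitters' processing notes (its version is not given in the sources used here), with no background correction, no normalization and no detection p-value. A second deposited table holds log2 values that differed by at most 0.005 from quantile-normalized log2 intensities computed here. No 2 arrays held identical values (0 pairs), and 0 columns were left out.

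With limma 3.58.1 (R 4.3.3), normexp correction at offset 50 and quantile normalization were applied to the intensities, and log2 was taken. The planned detection filter needed p-values that the table does not hold, so a probe was kept when its log2 signal exceeded, on at least 3 arrays, the mode of the array by 1.645 SDs of its lower side, a rule set after seeing the table. Of 464 olfactory receptor probes 5.39% to 6.68% lay above it. Kept were 20218 probes, 964 of them unnamed. Symbols were brought up to date through RefSeq (GRCh38.p14): 27036 were current, 4626 were replaced through a synonym and 12244 stayed as in the file. A gene is its brightest kept probe; of the called genes 230 had more than 1, and in 40 a probe had the opposite sign.

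All 9 arrays entered a single limma fit of the group means (6 residual and 16.2 prior degrees of freedom), so that the groups share 1 estimate of the spread, and 2-sided moderated tests were adjusted over 15589 genes and unnamed probes. The text names YAP1, the genes given for the comparison (RHBDF1, CCN2, GUCA2A and FCGBP), the 14 largest rises and falls with groups apart, the 10 largest of each called in neither single step, up to 6 per side off the midpoint and up to 4 called members per list; other list members are named as examples. A few genes that enter the counts are not reported here by name. Replicate numbers were not treated as pairs: deviations of equal numbers on YAP mutant vector and untreated arrays correlated at 0.16, 0.01 and 0.08. Those of unequal numbers ran from -0.16 to 0.10. Pairing with the control vector arrays was not checked in this way. The scripts were tested on simulated data.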

Additional observations from a re-analysis of the deposited data

Results flagged for a closer look

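Among probes that carry no gene name, and that enter no count of genes, 22 of 964 passed the test between YAP mutant vector and untreated cells (limma, adjusted p under 0.05), 9 of them higher and 13 lower. That is 2.28% of these probes, beside 5.36% of the named genes. They were listed because they are a signal in data that the comparisons of named genes do not use. What these probes read was not tested. In all, 806 of 15589 genes and unnamed probes passed.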

How the results depend on the processing

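No named gene reversed its direction (0 of 100), and of the 99 called ones 59 kept their call in each of the 22 other settings that tested them (MSLN, KRT80 and BPIFB4 missed the filter on dim probes in some), 40 lost it in at least 1 and 19 in more than 5. Counts below are genes called against untreated cells, genes called in neither single step and genes off the midpoint, which were 784, 490 and 16. Normexp with offset 16 gave 504 called and 7 off the midpoint. Scaling arrays to a common median gave 180, 129 and 4, with 41 called list members in place of 79 and a median difference of -0.08 over all genes. The mean over the kept probes left 7 off the midpoint. With a replicate block the counts were 844, 514 and 25. In 2 settings added after seeing the data, leaving out both dim arrays left 4 off the midpoint, and array brightness as a covariate gave 506, 317 and 9. Leaving out each array in turn gave 464 to 849 called (464 without YAP mutant vector replicate 3, 490 without untreated replicate 2), 211 to 688 in neither step, 6 to 40 off the midpoint and 57 to 83 list members. The share of calls that were higher, 65.7%, was 78.6% without untreated replicate 2. The cause of these shifts was not tested. The other counts, under no background correction, the deposited log2 table, cyclic loess, other filters, a trended robust prior and a fit without the control vector arrays, stayed within 1.5 times. Dim probes limit what can be seen: a gene under the floor on most arrays was not tested.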
